A study of Homo sapiens with 30 samples.

Results

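Plasma membrane amino acid carriers, 10 genes in all, were described in human neuroblastoma cells: SLC7A11, SLC7A5, SLC7A1, SLC7A3, SLC3A2, SLC38A1, SLC38A2, SLC1A4, SLC1A5 and SLC6A9. They were chosen by name, as carriers known to respond to amino acid shortage and related stress, with earlier results of these data known. The 10 genes stood among 52007 gene IDs present in the tables of all 3 cell lines, and each was found by its Ensembl gene ID in every table. RNA had been sequenced from IMR32, NGP and SK-N-BE(2)c, which are established neuroblastoma lines, after lipofection of antisense oligonucleotides (ASOs) at 100 nM. An ASO is a short synthetic nucleic acid that binds one chosen RNA. ASO1, ASO2 and ASO10 target NESPR, a long non-coding RNA, which the series title ties to adrenergic neuroblastoma, stress and cell death, and a control ASO, NCA, served as the reference. IMR32 had 4 libraries each of ASO1, ASO2 and NCA, while NGP and SK-N-BE(2)c had 3 libraries each of ASO2, ASO10 and NCA. Every group, NCA included, had received oligonucleotide and transfection reagent, and no untransfected cells were used here.

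Amino acid carriers of the plasma membrane set the supply of building blocks for protein synthesis. When amino acids run short, or when the endoplasmic reticulum is under stress, kinases phosphorylate the translation factor eIF2, general translation slows, and the transcription factor ATF4 is made more efficiently and raises transcription of many carrier genes. Some carriers work as pairs of proteins: SLC3A2 is a single-pass glycoprotein, also called CD98 heavy chain, that carries light chains such as SLC7A5 and SLC7A11 to the cell surface. SLC7A5 exchanges large neutral amino acids such as leucine, and SLC7A11 takes up cystine in exchange for glutamate, which feeds glutathione synthesis. SLC7A1 and SLC7A3 carry the cationic amino acids arginine and lysine. SLC38A1 and SLC38A2 are sodium-coupled carriers of glutamine and other small neutral amino acids. SLC1A4 and SLC1A5 exchange small neutral amino acids including serine, SLC1A5 also exchanges glutamine, and SLC6A9 takes up glycine.

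Values are the authors' normalized counts, which are gene counts divided by a size factor of the library. IMR32 libraries held 9393587 to 13932379 recovered reads, NGP libraries 11591178 to 13795561 and SK-N-BE(2)c libraries 11497829 to 15060356. IMR32 had been scaled on its own and the other lines jointly, so levels in IMR32 were not set against levels in the other lines. Libraries of a group are numbered as replicates in the labels, without saying whether cultures were separate, so the p-values measure the spread between these libraries, which may be technical. The column of NCA replicate 1 in NGP and SK-N-BE(2)c is spelled NCA and those of replicates 2 and 3 NCA2. The titles place all 3 in one group, and whether the spelling stands for another control oligonucleotide was not settled. NESPR itself was not analysed here, so the extent of its reduction is not given. All 12 adrenergic markers examined had more than 3 reads in some library of each line. That rule cannot test the adrenergic label, because all 6 fibroblast markers passed it in each line too. The summed normalized count of the adrenergic markers was 30990 to 36911 for IMR32, 34120 to 47112 for NGP and 34534 to 44847 for SK-N-BE(2)c. One of these markers, TH, had a low normalized count for IMR32, 20.1 to 33.0 over its libraries. Summed over 5 genes, leukocyte markers reached at most 12.2 for IMR32, 128 for NGP and 20.5 for SK-N-BE(2)c. In bulk RNA, fewer cells of a type and less RNA per cell cannot be told apart.

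The response of the carriers differed between lines. In NGP nearly the whole set was higher with either NESPR ASO, in SK-N-BE(2)c most of it was, and in IMR32 most carriers were lower with both ASOs. Of the 10 genes, 9 passed the filter on low values in all 3 lines, and SLC7A3 in none. Calls are limma results with a Benjamini-Hochberg adjusted p under 0.05 over all genes tested in the line, on log2(normalized count + 1), and all fold changes below are on that scale. In NGP, ASO2 had 8 carriers higher and 1 lower than NCA, where 30.6% of all genes tested were higher and 28.1% lower. ASO10 in NGP had 9 higher and 0 lower, against 26.8% and 27.6% of all genes. In SK-N-BE(2)c, ASO2 had 5 higher and 2 lower (all genes: 33.6% and 33.4%), and ASO10 had 8 higher and 0 lower (all genes: 27.8% and 31.1%). In IMR32, ASO1 had 1 higher and 6 lower (all genes: 13.6% and 14.4%), and ASO2 had 0 higher and 6 lower (all genes: 17.6% and 14.8%). Without ASO1 replicate 4, ASO1 in IMR32 had 1 higher and 3 lower. The limma counts of 0 stood at 1 higher for IMR32 with ASO2 and at 0 lower for ASO10 in both other lines at an unadjusted p under 0.05; edgeR called 1, 0 and 0 there, and DESeq2 0 in each. Without NCA replicate 1 of NGP or of SK-N-BE(2)c, whose column is spelled differently, the counts of that line against NCA were the same. The 2 contrasts of a line share their NCA libraries, so they are not independent of each other.

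The median log2 fold change of the 9 carriers was 0.77 with ASO2 and 0.62 with ASO10 in NGP, where all genes had 0.01 and -0.03. For SK-N-BE(2)c the median was 0.53 with ASO2 and 0.47 with ASO10, beside -0.02 and -0.03 over all genes. In IMR32 it was -0.25 with ASO1 and -0.30 with ASO2, beside -0.003 and -0.00079. ASO and NCA libraries did not overlap for 9 of 9 carriers with each ASO in NGP, where this held for 62.4% (ASO2) and 59.1% (ASO10) of all genes. Of the carriers, 8 of 9 in SK-N-BE(2)c did not overlap with either ASO (all genes: 69.3% with ASO2 and 64.7% with ASO10). In IMR32 4 of 9 did not overlap with ASO1 and 7 of 9 with ASO2 (all genes: 27.6% and 30.4%). With every library scaled to the same total, the median over all genes for ASO2 in SK-N-BE(2)c moved from -0.02 to -0.15, and the share of calls that were higher moved from 50.2% to 38.4%. No called fold change of a carrier changed sign under that scaling.

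**Figure D1:**
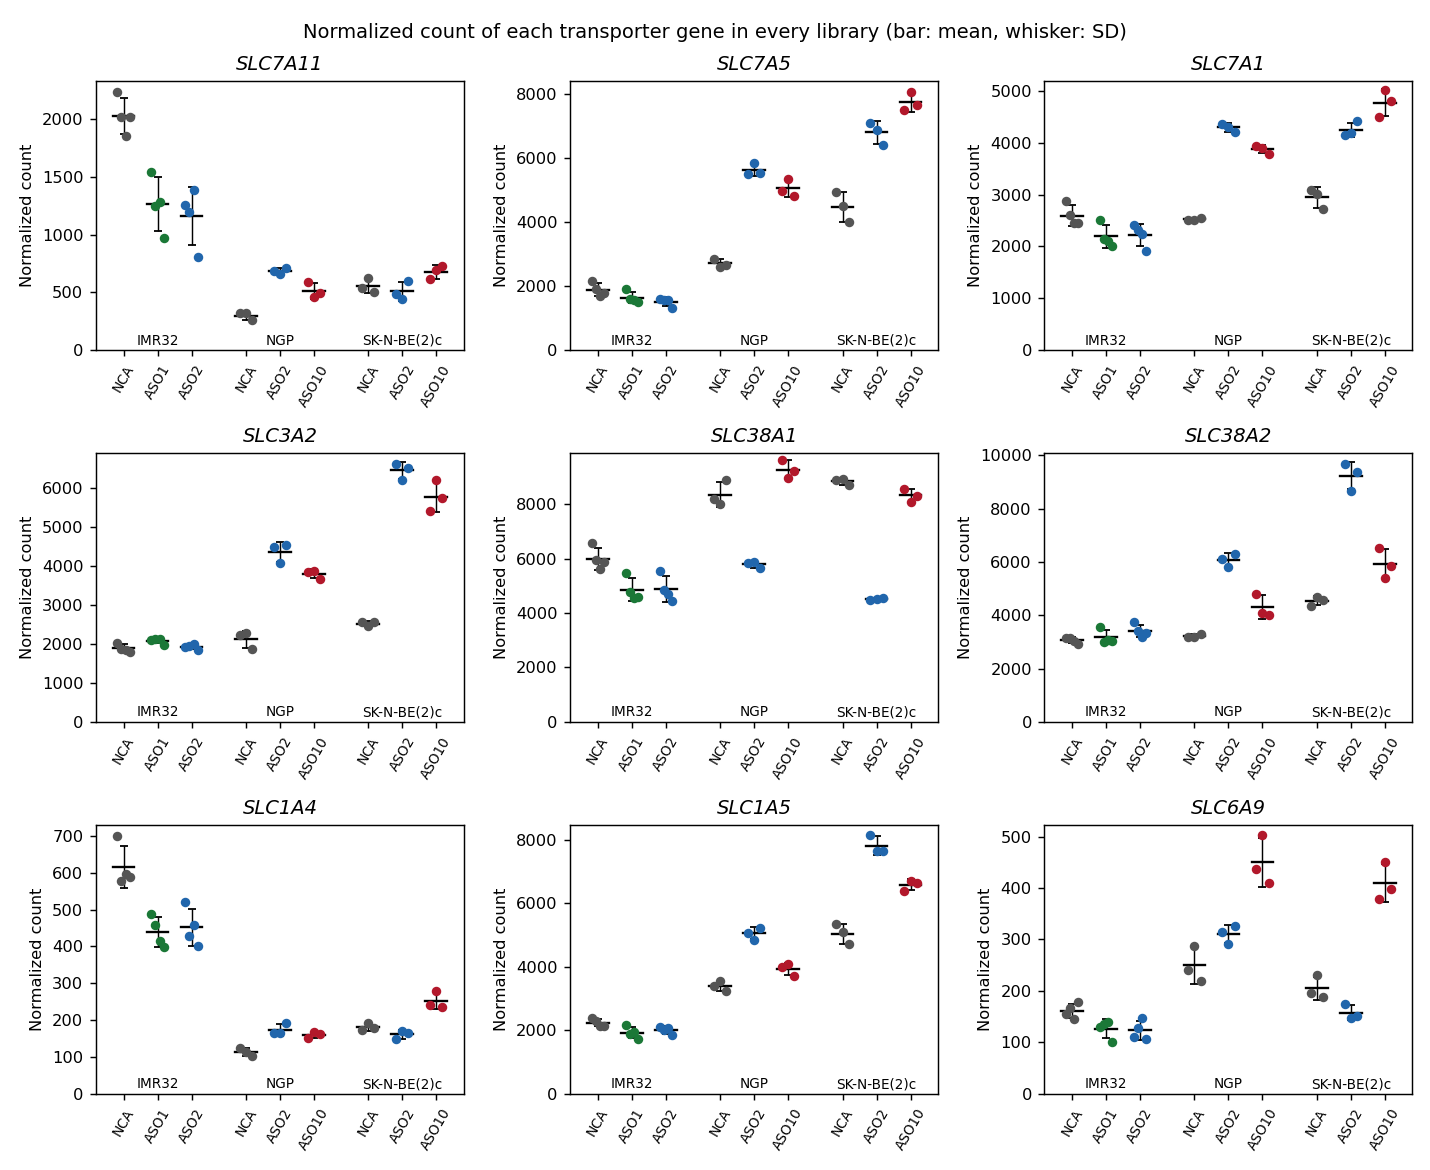
Normalized count (vertical axis, linear from 0) of the 9 tested carrier genes in each of the 30 libraries, grouped by cell line and ASO along the horizontal axis; points are libraries, horizontal bars group means and whiskers SD. In NGP the ASO points of every carrier shown except SLC38A1 lie above all NCA points, while in IMR32 the ASO points of SLC7A11, SLC1A4 and SLC38A1 lie below all NCA points.

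SLC3A2, the shared heavy chain, was the carrier with the highest log2 fold change in SK-N-BE(2)c with both ASOs, and its changes in IMR32 were small. Its normalized counts in SK-N-BE(2)c were 6623, 6227 and 6537 with ASO2, 5409, 6218 and 5744 with ASO10 and 2561, 2458 and 2565 with NCA. In NGP they were 4491, 4077 and 4541 with ASO2, 3858, 3886 and 3678 with ASO10 and 2219.8, 2280.0 and 1864 with NCA. In both lines all 6 ASO libraries stood above all 3 NCA libraries. The log2 fold changes were 1.35 ± 0.05 (adjusted p 1.36e-17) and 1.19 ± 0.05 (adjusted p 2.58e-16) for ASO2 and ASO10 in SK-N-BE(2)c, where ± gives the standard error. They were 1.05 ± 0.06 (adjusted p 8.84e-13) and 0.85 ± 0.06 (adjusted p 3.63e-11) in NGP. In IMR32 SLC3A2 was at 2097, 2123, 2125 and 1983 with ASO1, 1927, 1954, 1999.5 and 1852 with ASO2 and 2035, 1871, 1848 and 1787 with NCA, and the ASO libraries overlapped the NCA libraries. The change with ASO1 there, 0.14 ± 0.05 (adjusted p 0.0285), passed the test, and that with ASO2, 0.04 ± 0.05 (adjusted p 0.593), did not. The ASO1 call was lost with no filter on low values, in a fit without the mean-variance trend or without ASO1 replicate 2, ASO1 replicate 3, NCA replicate 2, NCA replicate 3 or NCA replicate 4 (log2 fold change 0.12 to 0.14, adjusted p 0.066 to 0.108).

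SLC7A5, the leucine exchanger that needs SLC3A2 at the cell surface, was higher with both ASOs in NGP and SK-N-BE(2)c. Its normalized counts in NGP were 5500.4, 5845 and 5548 with ASO2, 4986, 5366 and 4833 with ASO10 and 2862, 2607 and 2662 with NCA. The SK-N-BE(2)c libraries had 7111, 6899 and 6418 with ASO2, 7509, 8078 and 7677 with ASO10 and 4932, 4502 and 3998 with NCA. No ASO library overlapped an NCA library in either line. The log2 fold changes were 1.06 ± 0.05 (adjusted p 3.11e-14) and 0.90 ± 0.05 (adjusted p 3.89e-13) in NGP and 0.61 ± 0.06 (adjusted p 7e-10) and 0.80 ± 0.06 (adjusted p 6.16e-12) in SK-N-BE(2)c, for ASO2 and ASO10 in that order. In IMR32 its counts were 1895, 1587, 1572 and 1504 with ASO1, 1610.3, 1564, 1575 and 1305 with ASO2 and 2154, 1905, 1689 and 1787 with NCA. The ASO2 libraries all lay below the NCA libraries and the ASO1 libraries overlapped them, and the log2 fold changes were -0.31 ± 0.08 (adjusted p 0.00458) and -0.20 ± 0.08 (adjusted p 0.0653). The ASO1 difference, which missed the threshold, passed it without ASO1 replicate 1, ASO2 replicate 4 or NCA replicate 3 (log2 fold change -0.27 to -0.20, adjusted p 0.0067 to 0.0456).

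SLC7A11, the cystine importer, moved in opposite directions in IMR32 and NGP. Its normalized counts in IMR32 were 1547, 1251, 1285 and 972 with ASO1, 1255, 1199, 1384 and 807 with ASO2 and 2233, 2019, 1857 and 2017 with NCA. All 8 ASO libraries were below all 4 NCA libraries, and in each ASO group the library numbered 4 was the lowest. The log2 fold changes were -0.70 ± 0.13 (adjusted p 0.000353) and -0.83 ± 0.13 (adjusted p 7.27e-05). In NGP its counts were 687, 661 and 707 with ASO2, 589, 458 and 491 with ASO10 and 319, 318 and 258 with NCA. Here all 6 ASO libraries were above the NCA libraries, at log2 fold changes of 1.20 ± 0.10 (adjusted p 1.19e-10) and 0.78 ± 0.10 (adjusted p 2.24e-07). SK-N-BE(2)c libraries had 486, 442 and 602 with ASO2, 615, 691 and 730.4 with ASO10 and 536, 626 and 502 with NCA. The groups overlapped there, and the log2 fold change was -0.13 ± 0.10 (adjusted p 0.26) with ASO2 and 0.29 ± 0.10 (adjusted p 0.0118) with ASO10. The ASO10 call was lost in a fit without the mean-variance trend or without ASO10 replicate 3 or NCA replicate 3 (log2 fold change 0.23 to 0.29, adjusted p 0.0689 to 0.0952). The ASO2 difference passed the threshold, as lower, with every library scaled to the same total or without ASO2 replicate 3 (log2 fold change -0.26 to -0.25, adjusted p 0.0205 to 0.0256).

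SLC7A1, the main arginine and lysine importer of many cell types, followed SLC7A5 closely. Its normalized counts in NGP were 4371, 4313 and 4209 with ASO2, 3938, 3893 and 3788 with ASO10 and 2518, 2517 and 2547 with NCA. Those in SK-N-BE(2)c were 4149, 4181 and 4411 with ASO2, 4495, 5014 and 4811 with ASO10 and 3097, 3021 and 2719 with NCA. The ASO libraries of both lines lay above their NCA libraries without overlap. Log2 fold changes were 0.77 ± 0.05 (adjusted p 1.26e-12) and 0.62 ± 0.05 (adjusted p 5.94e-11) in NGP and 0.53 ± 0.06 (adjusted p 2.96e-09) and 0.70 ± 0.06 (adjusted p 2.5e-11) in SK-N-BE(2)c. In IMR32 the counts were 2518, 2146, 2095 and 2008 with ASO1, 2413, 2322, 2243 and 1913 with ASO2 and 2867, 2613, 2447 and 2456 with NCA. The library numbered 1 was the highest of its group in all 3 groups, and the changes were small, -0.25 ± 0.07 (adjusted p 0.0157) and -0.23 ± 0.07 (adjusted p 0.0227). The first call was lost in a fit without the mean-variance trend or without ASO1 replicate 4 or NCA replicate 1 (log2 fold change -0.25 to -0.20, adjusted p 0.0524 to 0.074). The other was lost in a fit without the mean-variance trend or without ASO2 replicate 4, NCA replicate 1 or NCA replicate 2 (log2 fold change -0.23 to -0.16, adjusted p 0.0548 to 0.107). SLC7A3, a cationic carrier of the same family, had 0 reads in all 18 libraries of NGP and SK-N-BE(2)c, where a count of 0 allows up to 3 reads. In IMR32 SLC7A3 had 0 to 3 reads per library, and no difference was detectable at this depth.

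The promoters of SLC7A5 and SLC7A1 are shown because this pair had the most similar pattern of all pairs of carriers (Pearson r 0.984). RefSeq sequences on the GRCh38.p14 build were used, which is not the build of the files, so no coordinates are given. RefSeq entries were matched for 8 of the 10 carriers, all but SLC7A11 and SLC7A3. Each line gives the 250 bases before the start of transcription on the minus strand, 5′ to 3′ in the direction of the gene, with motif matches in capitals.
SLC7A5: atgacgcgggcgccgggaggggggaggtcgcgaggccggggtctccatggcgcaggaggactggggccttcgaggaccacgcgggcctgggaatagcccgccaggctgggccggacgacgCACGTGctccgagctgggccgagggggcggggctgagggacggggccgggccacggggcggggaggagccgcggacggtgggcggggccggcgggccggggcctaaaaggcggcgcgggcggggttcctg
SLC7A1: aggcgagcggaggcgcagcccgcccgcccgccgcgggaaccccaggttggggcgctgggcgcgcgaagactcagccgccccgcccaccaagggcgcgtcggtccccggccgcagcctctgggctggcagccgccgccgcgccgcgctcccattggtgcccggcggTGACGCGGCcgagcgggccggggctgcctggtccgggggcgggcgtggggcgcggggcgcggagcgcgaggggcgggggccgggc
Motifs were searched on both strands: TGATGNAA, a core of the elements bound by pairs of CEBP and ATF proteins such as ATF4; TGACNNNGC, a core of the antioxidant response element bound by NRF2; and CACGTG, the E-box bound by MYC and related proteins. They were found in 3.14%, 10.91% and 6.34% of 35116 promoter windows of this length. Matches of the different motifs did not overlap in the windows of the carriers. SLC7A5 held CACGTG at 130 to 125 bases before the start, and SLC7A1 held TGACGCGGC, a match of TGACNNNGC, at 85 to 77 bases before it. One of the SLC3A2 windows held TGACTCAGC, another match of TGACNNNGC, at 37 to 29 bases before the start, in the context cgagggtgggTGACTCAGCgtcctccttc. SLC1A5 has 3 windows, of which 1 held TGATGCAA, a match of TGATGNAA, at 97 to 90 bases before the start, in the context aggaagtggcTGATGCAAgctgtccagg, and another held a match of each of the other motifs. The windows of SLC38A1, SLC38A2, SLC1A4 and SLC6A9 held none of these letters.

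SLC38A2, a glutamine and alanine carrier that cells are known to raise when amino acids are scarce, was higher with both ASOs in NGP and SK-N-BE(2)c, more so with ASO2. Its normalized counts in SK-N-BE(2)c were 9673, 8669 and 9379 with ASO2, 6530.2, 5418 and 5836 with ASO10 and 4366, 4703 and 4566 with NCA. In NGP they were 6121, 5802 and 6304 with ASO2, 4809, 4097 and 4006 with ASO10 and 3199.6, 3167 and 3307 with NCA. In both lines the 3 groups were fully separated, with ASO2 above ASO10 and ASO10 above NCA. Log2 fold changes were 1.02 ± 0.06 (adjusted p 1.23e-14) and 0.38 ± 0.06 (adjusted p 2.84e-06) in SK-N-BE(2)c and 0.91 ± 0.06 (adjusted p 2.04e-12) and 0.41 ± 0.06 (adjusted p 1.6e-06) in NGP. In IMR32 it was at 3171 ± 266 with ASO1 (SD, n = 4), 3415 ± 229 with ASO2 and 3074 ± 107 with NCA, and neither change passed the test (0.04 ± 0.06, adjusted p 0.634 and 0.15 ± 0.06, adjusted p 0.05005). The ASO2 difference stood at the threshold and passed it, as higher, with a pseudocount of 8, with a minimum mean of 50, with TMM scaling, with edgeR on the recovered reads or without ASO1 replicate 1, ASO2 replicate 3 or NCA replicate 1 (log2 fold change 0.15 to 0.18, adjusted p 0.0138 to 0.0493).

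SLC38A1, a carrier of the same family with overlapping substrates, went the other way with ASO2. SK-N-BE(2)c libraries had normalized counts of 4499, 4524 and 4539.7 with ASO2, 8583, 8094 and 8309 with ASO10 and 8911, 8939 and 8708 with NCA. In NGP they were 5829, 5887 and 5654 with ASO2, 9636, 8956 and 9247 with ASO10 and 8186, 8003 and 8899.8 with NCA. The ASO2 libraries were far below the others in both lines, while ASO10 lay close to NCA without overlapping it. Log2 fold changes with ASO2 were -0.97 ± 0.05 (adjusted p 3.5e-16) in SK-N-BE(2)c and -0.53 ± 0.05 (adjusted p 9.32e-10) in NGP. With ASO10 they were -0.09 ± 0.05 (adjusted p 0.104) and 0.15 ± 0.05 (adjusted p 0.00974). The ASO10 call in NGP was lost in a fit without the mean-variance trend or without ASO10 replicate 1 or NCA replicate 2 (log2 fold change 0.12 to 0.15, adjusted p 0.0512 to 0.0751), and the ASO10 difference in SK-N-BE(2)c passed the threshold, as lower, with every library scaled to the same total (log2 fold change -0.11, adjusted p 0.0348). In IMR32 SLC38A1 was at 5475, 4769, 4561 and 4608 with ASO1, 5558, 4832, 4698 and 4458 with ASO2 and 6562, 5967, 5619.8 and 5865 with NCA. It was lower with both ASOs, -0.31 ± 0.07 (adjusted p 0.00163) and -0.30 ± 0.07 (adjusted p 0.00199), without overlap with NCA.

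**Figure D2:**
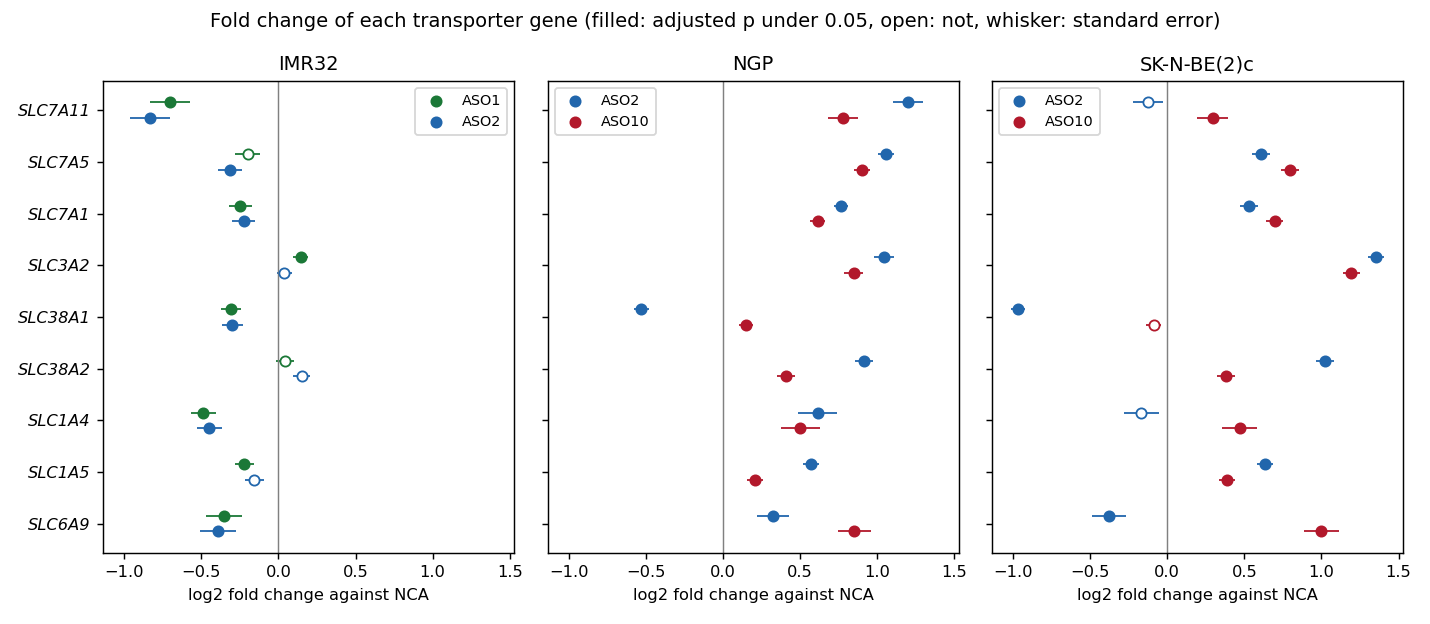
Log2 fold change against NCA of the same line (horizontal axis, limma on log2(normalized count + 1)) of the 9 tested carriers (vertical axis), one panel per cell line; filled points had an adjusted p under 0.05, open points did not, and whiskers are standard errors. Points lie mostly left of 0 in IMR32 and mostly right of 0 in NGP, and SLC38A1 with ASO2 lies left of 0 in every panel.

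SLC1A5, the glutamine exchanger, was higher in NGP and SK-N-BE(2)c. In NGP its normalized counts were 5073, 4853 and 5231 with ASO2, 3991, 4079.6 and 3718 with ASO10 and 3403, 3562 and 3232 with NCA. Those in SK-N-BE(2)c were 8157, 7643 and 7641 with ASO2, 6401, 6708 and 6652 with ASO10 and 5331, 5083 and 4704 with NCA. The 3 groups did not overlap in either line, and ASO2 stood highest. Log2 fold changes were 0.57 ± 0.05 (adjusted p 1.2e-09) and 0.21 ± 0.05 (adjusted p 0.00155) in NGP and 0.63 ± 0.05 (adjusted p 1.58e-11) and 0.39 ± 0.05 (adjusted p 2.84e-07) in SK-N-BE(2)c. In IMR32 it was at 1922 ± 182 with ASO1 (SD, n = 4), 2005 ± 112 with ASO2 and 2234 ± 116 with NCA. The ASO1 difference, -0.22 ± 0.06 (adjusted p 0.01), passed the test and was lost without ASO1 replicate 4 (log2 fold change -0.17, adjusted p 0.0511). The ASO2 difference, -0.16 ± 0.06 (adjusted p 0.0567), did not pass, but passed with every library scaled to the same total, with edgeR on the recovered reads or without ASO1 replicate 1, ASO1 replicate 4 or ASO2 replicate 1 (log2 fold change -0.19 to -0.16, adjusted p 0.0109 to 0.0421).

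SLC1A4, a carrier of alanine, serine and cysteine, resembled SLC7A11. Its normalized counts in IMR32 were 488, 457, 413 and 398 with ASO1, 519, 429, 457 and 401 with ASO2 and 701, 577, 596 and 589 with NCA. All 8 ASO libraries were below the 4 NCA libraries, and NCA replicate 1 stood above the other NCA libraries. Log2 fold changes were -0.49 ± 0.08 (adjusted p 0.000149) and -0.45 ± 0.08 (adjusted p 0.000364), and both calls stood without that library. In NGP its counts were 163, 165 and 192 with ASO2, 151, 166 and 163 with ASO10 and 124, 113 and 103 with NCA. All ASO libraries were higher there, at 0.62 ± 0.13 (adjusted p 0.000174) and 0.50 ± 0.13 (adjusted p 0.00158). Counts in SK-N-BE(2)c were 148, 171 and 164 with ASO2, 241, 278 and 237 with ASO10 and 173, 193 and 178 with NCA. ASO10 was above NCA at 0.47 ± 0.11 (adjusted p 0.000791), while ASO2, -0.17 ± 0.11 (adjusted p 0.192), did not pass the test and passed it, as lower, with every library scaled to the same total (log2 fold change -0.30, adjusted p 0.0198).

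SLC6A9, the glycine carrier, was the carrier with the lowest level of those tested in IMR32, and it had the widest gap between ASO2 and ASO10 in SK-N-BE(2)c. Its normalized counts there were 173, 147 and 151 with ASO2, 378, 451 and 398 with ASO10 and 196, 231 and 187 with NCA. ASO10 lay above NCA and ASO2 below it, with no overlap, at log2 fold changes of 1.00 ± 0.11 (adjusted p 1.22e-08) and -0.38 ± 0.11 (adjusted p 0.00417). In NGP the counts were 315, 291 and 326 with ASO2, 437, 503 and 409 with ASO10 and 240.4, 288 and 219 with NCA. Both ASOs were above NCA there, at 0.85 ± 0.11 (adjusted p 2.04e-07) with ASO10 and 0.32 ± 0.11 (adjusted p 0.0105) with ASO2. The ASO2 call in NGP was lost without NCA replicate 3 (log2 fold change 0.24, adjusted p 0.05003). In IMR32 its counts were 130.5, 136, 139 and 100.3 with ASO1, 111, 128, 146 and 106 with ASO2 and 155, 167, 145 and 177 with NCA. Both ASOs were lower, -0.35 ± 0.12 (adjusted p 0.0296) and -0.39 ± 0.12 (adjusted p 0.0139). The ASO1 call was lost in a fit without the mean-variance trend or without ASO1 replicate 4, NCA replicate 2 or NCA replicate 4 (log2 fold change -0.35 to -0.24, adjusted p 0.0628 to 0.127). The ASO2 call was lost without ASO2 replicate 4 or NCA replicate 4 (log2 fold change -0.35 to -0.33, adjusted p 0.0533 to 0.0545).

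Marker sums of other cell states and types moved with these comparisons. The sum over 12 adrenergic markers with ASO10 was 34120 to 35369 in NGP, where NCA had 45459 to 47112, and 34534 to 35935 in SK-N-BE(2)c, where NCA had 40239 to 44847. With ASO2 it was 42149.5 to 43684 for NGP and 36645 to 39101 for SK-N-BE(2)c, also below all NCA libraries. In IMR32 it was 30990 to 34255 with ASO1, below NCA at 34960 to 36911, and 33103 to 35505 with ASO2, which overlapped NCA. With ASO10, 0 of 12 adrenergic markers were called higher and 11 lower in NGP, and 0 and 9 in SK-N-BE(2)c. With ASO2, 2 were higher and 5 lower in NGP, and 3 and 8 in SK-N-BE(2)c. In IMR32 the counts were 2 and 4 with ASO1, and 2 and 3 with ASO2. Over all genes, 26.8% to 33.6% were higher and 27.6% to 33.4% lower across NGP and SK-N-BE(2)c. For IMR32 these shares were 13.6% to 17.6% and 14.4% to 14.8%. The sum over 11 mesenchymal neuroblastoma markers in NGP was 15915 to 16934 with ASO2, 13124 to 13883 with ASO10 and 12250 to 12547 with NCA, without overlap. For SK-N-BE(2)c it was 5664 to 5811 with ASO2, above NCA at 4563 to 4835, and 4822 to 5106 with ASO10, which overlapped NCA. IMR32 had 4413 to 5099 with ASO1, 5162 to 5595 with ASO2 and 4619 to 5327 with NCA, which overlapped. VIM was the highest of these markers, at 9042 to 13719.5 in NGP, 2529 to 3660 in SK-N-BE(2)c and 1946 to 2970 in IMR32. Of 6 tested in NGP, 4 were called higher and 2 lower with ASO2, and 3 and 3 with ASO10. Of 5 tested in SK-N-BE(2)c, 1 was higher and 1 lower with ASO2, and 1 and 2 with ASO10. Of 9 tested in IMR32, 2 were higher and 1 lower with ASO1, and 3 and 1 with ASO2. The sum over 6 fibroblast markers was 821 to 864 with ASO2 and 472 to 504 with NCA in NGP, and 609 to 693 against 376 to 393 in SK-N-BE(2)c. With ASO10 it was 429.98 to 537 in NGP, overlapping NCA, and 319 to 362 in SK-N-BE(2)c, below NCA. In IMR32 the fibroblast sum was 1354 to 1479 with ASO2, 1146 to 1227 with ASO1 and 1095 to 1147 with NCA. The sum over 5 leukocyte markers was 94.7 to 128 with ASO10 in NGP and 20.5 to 24.8 with NCA, and 3 of the 5 genes were at 3 reads or fewer in every NGP library. Leukocyte sums in the other lines and the sum over 4 epithelial markers in any line were at most 37.9. The part of these differences in the carrier results was not tested.

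The ASOs of a line were also compared with each other. In IMR32 limma called 0 of 9 carriers between ASO1 and ASO2, where 9.17% of all genes were higher and 12.8% lower with ASO1. At an unadjusted p under 0.05 the count was 1 of 9, and edgeR and DESeq2 on the recovered reads called 0. The 95% intervals of the 9 differences lay within -0.23 and 0.40, the widest being that of SLC7A11 (-0.14 to 0.40), so differences of that size were not excluded. With every library scaled to the same total, SLC3A2 was called higher with ASO1 (0.16, adjusted p 0.0137), and the share of calls that were higher over all genes moved from 41.8% to 59.8%. Without ASO1 replicate 1, SLC38A2 was called lower with ASO1 (-0.17, adjusted p 0.0166).

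In NGP 6 carriers were higher and 2 lower with ASO2 than with ASO10, where 30.6% of all genes were higher and 28.0% lower. SLC38A2 (0.50 ± 0.06, adjusted p 5.65e-08), SLC7A11 (0.42 ± 0.10, adjusted p 0.00053) and SLC1A5 (0.36 ± 0.05, adjusted p 1.76e-06) were the furthest above. SLC38A1 (-0.68 ± 0.05, adjusted p 7.28e-12) and SLC6A9 (-0.53 ± 0.11, adjusted p 0.000124) were lower with ASO2. SLC3A2 (0.20), SLC7A5 (0.15) and SLC7A1 (0.15) were higher by less, and all 3 calls were lost with every library scaled to the same total. The call of SLC3A2 was lost with every library scaled to the same total, in a fit without the mean-variance trend or without ASO2 replicate 3 (log2 fold change 0.14 to 0.20, adjusted p 0.0558 to 0.0913), and that of SLC7A5 with every library scaled to the same total, in a fit without the mean-variance trend or without ASO2 replicate 2, ASO10 replicate 1 or ASO10 replicate 3 (log2 fold change 0.09 to 0.15, adjusted p 0.0555 to 0.125). SLC1A4 was not called, with a 95% interval of -0.15 to 0.37.

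All 9 carriers differed between ASO2 and ASO10 in SK-N-BE(2)c, 3 higher and 6 lower with ASO2, where 34.6% of all genes were higher and 30.8% lower. SLC6A9 (-1.38 ± 0.11, adjusted p 1.44e-11), SLC38A1 (-0.88 ± 0.05, adjusted p 1.7e-15), SLC1A4 (-0.64 ± 0.11, adjusted p 1.61e-05) and SLC7A11 (-0.42 ± 0.10, adjusted p 0.000474) were the furthest below. SLC38A2 (0.64 ± 0.06, adjusted p 1.51e-10) and SLC1A5 (0.25 ± 0.05, adjusted p 0.000144) were above. SLC7A5 (-0.19), SLC7A1 (-0.17) and SLC3A2 (0.16) differed by less. The SLC3A2 call was lost with every library scaled to the same total, in a fit without the mean-variance trend or without ASO10 replicate 1 (log2 fold change 0.05 to 0.16, adjusted p 0.0604 to 0.437), that of SLC7A5 in a fit without the mean-variance trend or without ASO2 replicate 3 (log2 fold change -0.19 to -0.15, adjusted p 0.0541 to 0.0865), and that of SLC7A1 in a fit without the mean-variance trend or without ASO10 replicate 2 (log2 fold change -0.17 to -0.13, adjusted p 0.0649 to 0.0705). Over all genes, scaling to the same total moved the share of calls that were higher from 52.9% to 42.2%.

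Whether an ASO acted differently in the jointly scaled lines was tested as the log2 fold change in SK-N-BE(2)c minus that in NGP, over 12637 genes. For ASO2, 7 of 9 carriers differed, 1 higher and 6 lower in SK-N-BE(2)c, beside 10.5% higher and 9.37% lower of all genes. SLC7A11 differed by -1.33 ± 0.15 (adjusted p 5.15e-07), SLC1A4 by -0.78 ± 0.17 (adjusted p 0.00124) and SLC6A9 by -0.70 ± 0.16 (adjusted p 0.00237). SLC7A5 (-0.45 ± 0.08, adjusted p 0.000429), SLC38A1 (-0.44 ± 0.06, adjusted p 1.7e-05) and SLC7A1 (-0.24 ± 0.07, adjusted p 0.0203) were also lower in SK-N-BE(2)c, and SLC3A2 (0.31 ± 0.09, adjusted p 0.0127) was higher. SLC38A2 and SLC1A5 were not called, with 95% intervals of -0.07 to 0.29 and -0.09 to 0.21. The SLC3A2 call was lost in a fit without the mean-variance trend or without NGP ASO2 replicate 2 (log2 fold change 0.26 to 0.31, adjusted p 0.0528 to 0.0638), and that of SLC7A1 in a fit without the mean-variance trend or without SK-N-BE(2)c NCA replicate 1 or SK-N-BE(2)c NCA replicate 2 (log2 fold change -0.24 to -0.20, adjusted p 0.0525 to 0.0618). Scaling to the same total moved the share of calls over all genes that were higher from 52.9% to 32.8%.

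For ASO10, 3 of 9 carriers differed between these lines, 1 higher and 2 lower in SK-N-BE(2)c, beside 9.35% higher and 9.86% lower of all genes. SLC3A2 differed by 0.34 ± 0.09 (adjusted p 0.0059), SLC7A11 by -0.48 ± 0.15 (adjusted p 0.0243) and SLC38A1 by -0.24 ± 0.06 (adjusted p 0.00846). The SLC7A11 call was lost in a fit without the mean-variance trend or without NGP ASO10 replicate 1, NGP NCA replicate 3, SK-N-BE(2)c ASO10 replicate 1 or SK-N-BE(2)c NCA replicate 2 (log2 fold change -0.48 to -0.38, adjusted p 0.0544 to 0.0964). SLC1A5 (0.18 ± 0.07, adjusted p 0.0862) was not called, but was called with edgeR on the recovered reads or without NGP NCA replicate 3 or SK-N-BE(2)c NCA replicate 1 (log2 fold change 0.21 to 0.22, adjusted p 0.0313 to 0.0383). The other 5 carriers had 95% intervals within -0.37 and 0.47.

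ASO2 was used in all 3 lines, and its effect in IMR32 was set against that in each other line over 11594 genes, in a comparison added after the data were seen. A log2 fold change is a ratio within a line, so the separate scaling of IMR32 enters only through each line's own reference. In NGP minus IMR32, all 9 carriers differed, 8 higher and 1 lower in NGP, beside 16.0% higher and 23.6% lower of all genes. SLC7A11 differed by 2.03 ± 0.18 (adjusted p 2.29e-11), SLC7A5 by 1.37 ± 0.11 (adjusted p 9.8e-13), SLC1A4 by 1.06 ± 0.14 (adjusted p 8.04e-08) and SLC3A2 by 1.009 ± 0.08 (adjusted p 2.39e-12). SLC7A1, SLC38A2, SLC1A5 and SLC6A9 differed by 0.99, 0.76, 0.73 and 0.72. SLC38A1 was lower in NGP by -0.23 ± 0.09 (adjusted p 0.0311), a call that was lost with no filter on low values, in a fit without the mean-variance trend or without IMR32 ASO2 replicate 1, IMR32 NCA replicate 3, IMR32 NCA replicate 4, NGP ASO2 replicate 3 or NGP NCA replicate 3 (log2 fold change -0.23 to -0.17, adjusted p 0.0533 to 0.105).

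In SK-N-BE(2)c minus IMR32, 6 carriers were higher and 1 lower in SK-N-BE(2)c, beside 21.7% and 29.1% of all genes. SLC3A2 (1.32 ± 0.08, adjusted p 1.94e-15), SLC7A5 (0.92 ± 0.11, adjusted p 3.96e-09) and SLC38A2 (0.87 ± 0.09, adjusted p 4.16e-10) had the highest differences, and SLC1A5, SLC7A1 and SLC7A11 followed at 0.79, 0.76 and 0.71. SLC38A1 was lower (-0.67 ± 0.09, adjusted p 3.44e-08). SLC1A4 (0.28 ± 0.14, adjusted p 0.0895) and SLC6A9 (95% interval -0.32 to 0.36) were not called, and SLC1A4 was called with DESeq2 on the recovered reads or without IMR32 ASO2 replicate 1 (log2 fold change 0.34 to 0.35, adjusted p 0.0344 to 0.0419). Scaling to the same total moved the median over all genes from -0.05 to -0.16 here and the share of calls that were higher from 42.7% to 29.9%.

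Levels of the carriers were then ordered within the NCA libraries of each line, as normalized count per kilobase of exon. SLC1A5 was the highest in every line, at 670 ± 34.8 (SD, n = 4) per kilobase in IMR32, 1020.1 ± 49.6 (n = 3) in NGP and 1513 ± 94.8 (n = 3) in SK-N-BE(2)c. In IMR32 SLC38A1 (599 ± 39.9) followed and overlapped SLC1A5, then came SLC38A2 (466 ± 16.2), SLC7A5 (397 ± 42.3), SLC3A2 (364 ± 20.5) and SLC7A1 (337 ± 25.5), each overlapping its neighbour, and SLC7A11 (211 ± 16.0), SLC1A4 (88.7 ± 8.24) and SLC6A9 (31.2 ± 2.73), which did not overlap. In NGP the order after SLC1A5 was SLC38A1 (835 ± 47.3), SLC7A5 (571 ± 28.2), SLC38A2 (488 ± 11.1), SLC3A2 (410 ± 43.4), SLC7A1 (329 ± 2.25), SLC6A9 (48.3 ± 6.81), SLC7A11 (30.9 ± 3.59) and SLC1A4 (16.3 ± 1.53), with no overlap between neighbours. Among SK-N-BE(2)c libraries, SLC7A5 (944 ± 98.5) and SLC38A1 (884 ± 12.6) overlapped, and SLC38A2 (688 ± 25.7), SLC3A2 (488 ± 11.7), SLC7A1 (383 ± 26.0), SLC7A11 (57.5 ± 6.65), SLC6A9 (39.6 ± 4.51) and SLC1A4 (26.1 ± 1.48) followed without overlap. Within the jointly scaled lines, NCA cells had 555 ± 64.1 (SD, n = 3) normalized counts of SLC7A11 in SK-N-BE(2)c and 298 ± 34.6 in NGP, and 4477 ± 467 against 2710.4 ± 134 of SLC7A5, without overlap.

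Genes of the amino acid response, among them ATF4 and its known partners and targets, were counted beside the carriers. The list held 24 genes other than the carriers, of which 23 were tested. In NGP 20 were higher and 2 lower with ASO2 and 20 higher and 0 lower with ASO10 (1 lower at an unadjusted p under 0.05, 0 with edgeR or DESeq2). In SK-N-BE(2)c 21 were higher and 2 lower with ASO2, and 21 higher and 1 lower with ASO10. In IMR32 4 were higher and 6 lower with ASO1, and 5 higher and 8 lower with ASO2. Over all genes, 26.8% to 33.6% were higher and 27.6% to 33.4% lower across NGP and SK-N-BE(2)c. For IMR32 these shares were 13.6% to 17.6% and 14.4% to 14.8%, and no difference from them was tested. The median log2 fold changes were 0.72 and 0.57 for NGP, 0.63 and 0.56 for SK-N-BE(2)c and -0.08 and -0.14 in IMR32, beside the medians over all genes given above. ATF3, a stress-induced transcription factor, was called higher in all 6 contrasts, with log2 fold changes of 0.77 (adjusted p 9.11e-07) with ASO1 and 0.73 (adjusted p 2.53e-06) with ASO2 in IMR32 and 1.49 (adjusted p 2.8e-12) with ASO10 in NGP. CEBPB, a transcription factor of the same basic leucine zipper class, was also called higher in all 6, from 0.24 (adjusted p 0.0157) with ASO2 in IMR32 to 0.74 (adjusted p 3.73e-06) with ASO2 in NGP. SESN2, a leucine sensor that restrains mTORC1, was at 2995 ± 180.4 with ASO2 (SD, n = 3), 2237 ± 67.7 with ASO10 and 1116 ± 216 with NCA in NGP, and in IMR32 it was called higher with ASO2, at 0.42 (adjusted p 0.00447), and not with ASO1, at 0.17 (adjusted p 0.247).

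**Figure D3:**
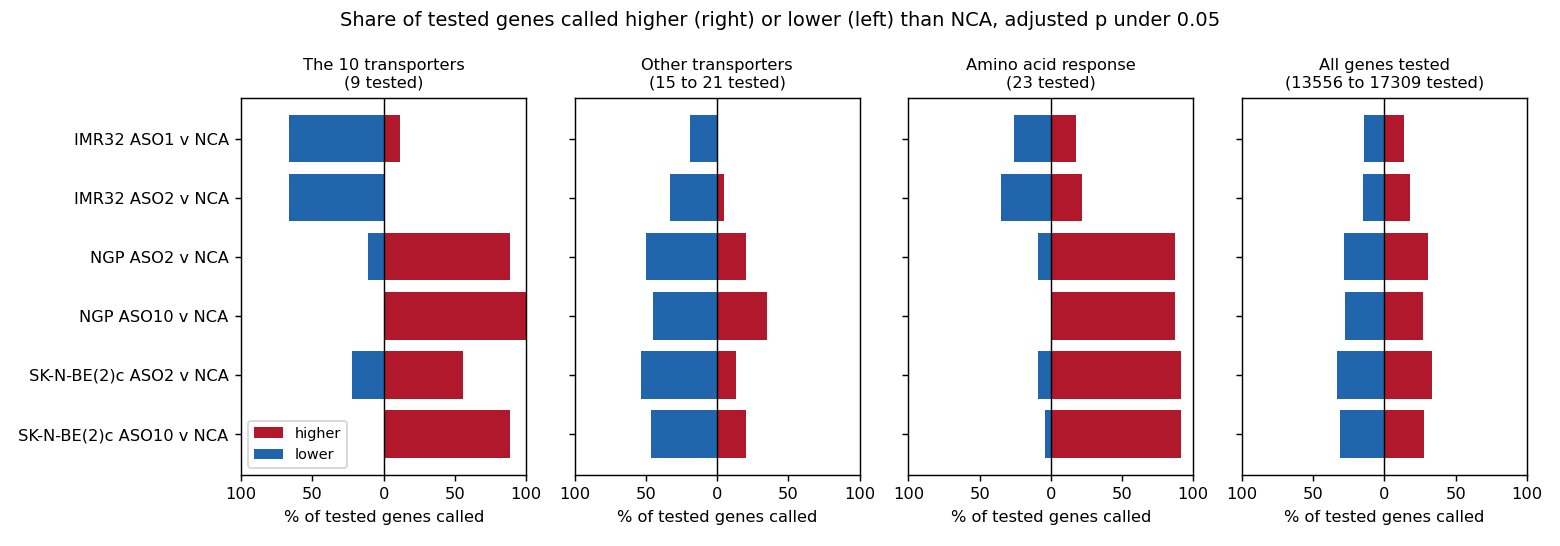
Percentage of tested genes called higher (right, red) or lower (left, blue) than NCA at an adjusted p under 0.05, for each of the 6 contrasts (rows), in the 10 carriers (9 tested), 40 other amino acid transporters (15 to 21 tested), 24 amino acid response genes (23 tested) and all genes tested (13556 to 17309). In the NGP rows the carriers lie mainly to the right, the other transporters have more genes to the left than to the right, and all genes are nearly even.

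Amino acid transporters outside the set were counted in the same way. Of 40 such genes, 21 passed the filter for IMR32, 20 for NGP and 15 for SK-N-BE(2)c. In IMR32 0 were higher (2 at an unadjusted p under 0.05, 0 with edgeR or DESeq2) and 4 lower with ASO1, and 1 higher and 7 lower with ASO2. In NGP 4 were higher and 10 lower with ASO2, and 7 higher and 9 lower with ASO10. In SK-N-BE(2)c 2 were higher and 8 lower with ASO2, and 3 higher and 7 lower with ASO10. Over all genes, 13.6% to 17.6% were higher and 14.4% to 14.8% lower in IMR32, and 26.8% to 33.6% higher and 27.6% to 33.4% lower across the other lines. With ASO1 in IMR32 the lower count was near the share over all genes, and whether any of these counts differs from it was not tested. Their median log2 fold changes were -0.29 and -0.08 for NGP, -0.20 and -0.00091 for SK-N-BE(2)c, and -0.12 and -0.15 in IMR32, beside the same medians over all genes. SLC38A9, the lysosomal arginine sensor, fell in 5 of 6 contrasts, with log2 fold changes of -0.80 (adjusted p 0.000537) and -0.62 (adjusted p 0.00664) in SK-N-BE(2)c. SLC6A15, a neuronal carrier of branched-chain amino acids, fell in 5 of 6, from -0.15 (adjusted p 0.0245) with ASO2 in IMR32 to -0.49 (adjusted p 4.63e-07) with ASO10 in SK-N-BE(2)c. SLC16A10, a carrier of aromatic amino acids, fell in 4 of 6, at -0.79 (adjusted p 0.000298) with ASO2 in NGP and -1.17 (adjusted p 8.98e-06) with ASO2 in SK-N-BE(2)c.

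Genes that act next to the carriers were mixed, and their counts stand beside the same shares over all genes, with no test of a difference. These shares were 13.6% to 17.6% higher and 14.4% to 14.8% lower in IMR32. Across NGP and SK-N-BE(2)c they were 26.8% to 33.6% higher and 27.6% to 33.4% lower. Of 9 eIF2 kinases, phosphatase subunits and partners, 3 were higher and 1 lower with ASO1 and 5 higher and 1 lower with ASO2 in IMR32. In NGP 5 were higher and 3 lower with ASO2, and 2 higher and 3 lower with ASO10; in SK-N-BE(2)c the counts were 5 and 3, and 6 and 2. PPP1R15A, the stress-induced subunit that directs dephosphorylation of eIF2, was higher in all 6 contrasts, and in IMR32 it was at 1236 ± 135 with ASO1 (SD, n = 4), 949.5 ± 107 with ASO2 and 378 ± 9.97 with NCA. PPP1R15B, its constitutive counterpart, was also higher in all 6, by 0.14 to 0.59. EIF2AK2, the kinase that senses double-stranded RNA, was lower in 5 contrasts and not called in IMR32 with ASO2, at 0.07 (adjusted p 0.555).

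Of 13 tested genes of cystine use and glutathione, 6 were higher and 1 lower with ASO1 and 8 higher and 0 lower with ASO2 in IMR32, where SLC7A11 was lower. That 0 was also the count at an unadjusted p under 0.05 and with edgeR and DESeq2. In NGP 8 were higher and 1 lower with ASO2, and 2 higher and 2 lower with ASO10. The counts for SK-N-BE(2)c were 8 and 2 with ASO2, and 4 and 3 with ASO10. Over all genes in IMR32, 13.6% were higher and 14.4% lower with ASO1, and 17.6% and 14.8% with ASO2. Across NGP and SK-N-BE(2)c 26.8% to 33.6% were higher and 27.6% to 33.4% lower. Whether the counts of this list differ from these shares was not tested. CHAC1, an enzyme that breaks down glutathione, was called higher with both ASOs in NGP (0.72, adjusted p 4.73e-06 and 0.68, adjusted p 1.08e-05) and in SK-N-BE(2)c (0.37, adjusted p 0.00249 and 0.83, adjusted p 7.52e-08), and had -0.04 (adjusted p 0.881) and -0.18 (adjusted p 0.405) in IMR32. GPX4, the glutathione peroxidase that removes lipid peroxides, was called higher in 4 contrasts, with 0.55 (adjusted p 1.13e-09) for ASO2 in SK-N-BE(2)c. HMOX1, which degrades heme, was at 446 ± 23.1 with ASO1 (SD, n = 4), 53.5 ± 11 with ASO2 and 40.6 ± 5.11 with NCA in IMR32. HMOX1 in SK-N-BE(2)c was at 458 ± 32.2 with ASO10 (SD, n = 3), 211 ± 29.8 with ASO2 and 199.6 ± 22.7 with NCA.

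The likeness of patterns was described by Pearson r of log2(normalized count + 1), centred on the NCA mean of each line, over the 30 libraries and among 11594 genes tested in all lines. The libraries share their scaling and their groups, so r mainly follows which groups were high, and it is given as a description. SLC7A5 and SLC7A1 were each other's closest gene (r 0.984), and PHGDH, the enzyme that opens serine synthesis, came next for both (0.958 and 0.974). SLC7A11 was closest to INHBE, an inhibin subunit (0.928), SLC1A4 (0.927) and STC2, a secreted stress-induced glycoprotein (0.916). SLC1A5 was closest to GARS1, the glycyl-tRNA synthetase (0.964), PHGDH (0.961) and VLDLR, a lipoprotein receptor (0.961). SLC3A2 was closest to ZNF227 (0.979), SLC38A2 to FAM76B (0.971), SLC38A1 to PREP (0.966) and SLC6A9 to MTA1 (0.923). Among the carriers, SLC38A1 and SLC38A2 were the pair with the lowest r (-0.68), and SLC38A1 had a negative r with SLC3A2 (-0.50) and SLC1A5 (-0.47).

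**Figure D4:**
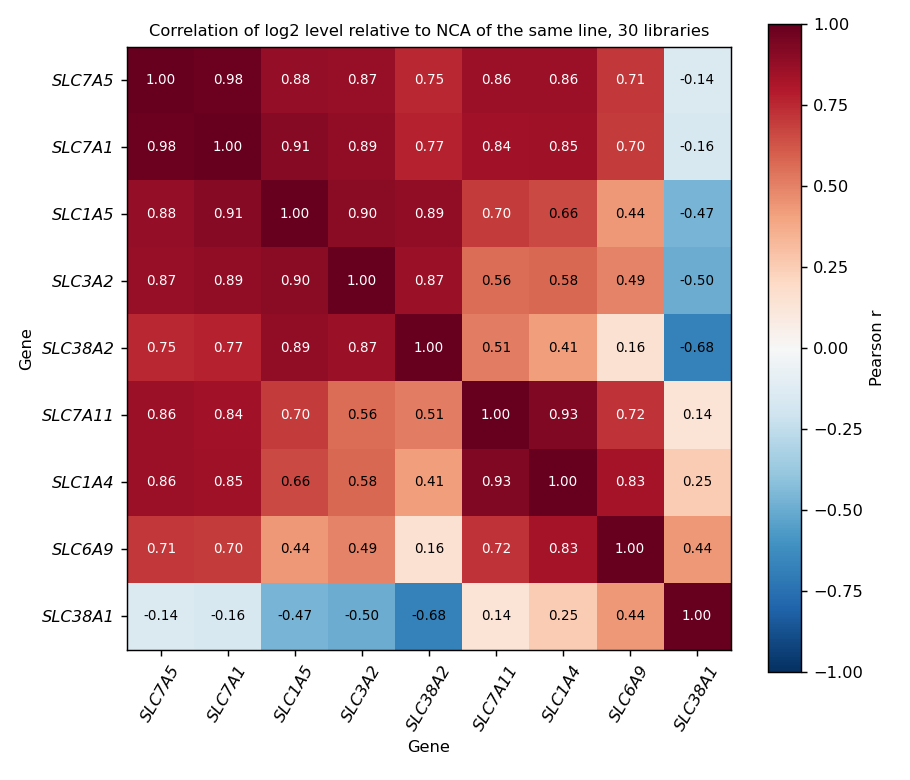
Pearson r between each pair of the 9 tested carriers over the 30 libraries, from log2(normalized count + 1) centred on the NCA mean of each line; both axes list the genes and the color scale runs from -1 (blue) to 1 (red). SLC7A5 and SLC7A1 have the highest r (0.98), and the row of SLC38A1 holds all the negative values.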

How the data were processed

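RNA-seq of 30 libraries in 9 groups was used, grouped by sample title. Per the submitters' processing notes, FastQC 0.11.8, cutadapt 1.18, STAR 2.6.0, HTSeq 0.6.1, DESeq2 1.42.0 and the builds hg19 and GRCh37 were used; their roles are not given there. Per the labels' protocols, libraries were made with a stranded total RNA kit or a stranded mRNA kit, and which library had which is not given in the sources used here, nor are the harvest time and whether counting used strand. The deposited values, one table per line, are a normalized signal: gene counts that the authors divided by a size factor per library. Steps between low values gave that factor (0.811 to 1.20), and multiplying by it made 100% of values whole numbers of reads (tolerance 0.01). The median ratio to the geometric mean library was 1.012 in all 18 NGP and SK-N-BE(2)c libraries, which were taken as scaled jointly. No column of per-sample values was left unused (0 columns). The IMR32 table held 174 entries without a gene ID (0.172% of values), which were left out. Symbols were matched for 99.9% of gene IDs in IMR32 and 89.8% in the other tables.

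Tested genes averaged 10 or more over a line's libraries (17309 in IMR32, 14440 in NGP, 13556 in SK-N-BE(2)c) on log2(value + 1) with limma 3.58.1 in R 4.3.3, 1 mean per group, a mean-variance trend and Benjamini-Hochberg adjustment over all genes tested. That scale understates changes of low genes. Differences between lines were interaction terms of joint fits. edgeR 4.0.16 and DESeq2 1.42.0 on the recovered reads, other pseudocounts, filters and scalings, a replicate block and leaving out each library were alternatives. The tests were run on simulated counts with the same extra spread for every gene, for ASO1 in IMR32 and ASO2 in the other lines against NCA. Interaction terms and links between same-numbered libraries were not simulated, so that check does not cover them. The carriers and lists were chosen with earlier results of these data known. All 10 carriers are named; from each other list up to 3 genes are, those called with one sign in most of the 6 contrasts against NCA, ties by mean absolute log2 fold change. Lengths are the union of exons in GENCODE release 29, matched by gene ID. The 95% intervals are limma's, from the spread between libraries; the floor of 3 reads covers counting error only.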

Additional observations from a re-analysis of the deposited data

Results flagged for a closer look

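Dixon's test was run on each tested carrier within each IMR32 group of 4 libraries, 27 tests in all. In 2 of them 1 library stood apart from the other 3. Chance alone gives this in about 1 of 20 independent tests. The 27 tests share libraries, so they are not independent. SLC7A5 with ASO2 was at 1305 in replicate 4 and at 1564 to 1610.4 in the others. SLC1A4 with NCA was at 701 in replicate 1 and at 577 to 596 in the others. Without NCA replicate 1, SLC1A4 stayed lower with both ASOs.

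The other values are differences between cell lines in the response to the same ASO, taken as differences of log2 fold changes with a limma adjusted p under 0.05. For ASO2 in SK-N-BE(2)c minus NGP these were -1.33 for SLC7A11, -0.45 for SLC7A5, -0.24 for SLC7A1, 0.31 for SLC3A2, -0.44 for SLC38A1, -0.78 for SLC1A4 and -0.70 for SLC6A9. For ASO10 in the same lines they were -0.48 for SLC7A11, 0.34 for SLC3A2 and -0.24 for SLC38A1. For ASO2 in NGP minus IMR32 they were 2.03 for SLC7A11, 1.37 for SLC7A5, 0.99 for SLC7A1, 1.009 for SLC3A2, -0.23 for SLC38A1, 0.76 for SLC38A2, 1.06 for SLC1A4, 0.73 for SLC1A5 and 0.72 for SLC6A9. For ASO2 in SK-N-BE(2)c minus IMR32 they were 0.71 for SLC7A11, 0.92 for SLC7A5, 0.76 for SLC7A1, 1.32 for SLC3A2, -0.67 for SLC38A1, 0.87 for SLC38A2 and 0.79 for SLC1A5. The kit used for each library is not given in the sources used here, and its part in the differences between lines was not tested.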

How the results depend on the processing

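No called fold change of a carrier reversed under any alternative that gave a value; of the values recomputed for single carriers, 2750 stayed on their side of the threshold, 61 lost and 33 gained a call. A required log2 fold change of at least 1 lowered the counts over all genes tested by construction. Against NCA they went from 4850 to 222 (ASO1) and 5607 to 197 (ASO2) for IMR32, 8477 to 1410 (ASO2) and 7850 to 1686 (ASO10) for NGP, and 9078 to 1776 (ASO2) and 7981 to 1466 (ASO10) for SK-N-BE(2)c. Between ASOs they went from 3795 to 120 for IMR32, 8458 to 1858 for NGP and 8861 to 1883 for SK-N-BE(2)c. Between lines they went from 2514 to 202 (ASO2) and 2427 to 294 (ASO10) for SK-N-BE(2)c minus NGP, 4589 to 442 for NGP minus IMR32 and 5889 to 783 for SK-N-BE(2)c minus IMR32. Of carriers called against NCA, 0 higher and 0 lower were left in IMR32 with either ASO, 3 higher and 0 lower with ASO2 and 0 with ASO10 in NGP, and 2 higher and 0 lower with ASO2 and 1 higher with ASO10 in SK-N-BE(2)c. Between ASOs that rule left 0 in NGP and 1 (0 higher, 1 lower) in SK-N-BE(2)c. Between lines it left 1 (0 higher, 1 lower) for ASO2 and 0 for ASO10 in SK-N-BE(2)c minus NGP, 4 (4 higher, 0 lower) in NGP minus IMR32 and 1 (1 higher, 0 lower) in SK-N-BE(2)c minus IMR32. Scaling to the same total gave 5 called and 3 higher for ASO2 against ASO10 in NGP, 4 lower for ASO2 and 1 lower for ASO10 in SK-N-BE(2)c, and 1 called (1 higher) for ASO1 against ASO2 in IMR32. Without the mean-variance trend, ASO1 in IMR32 had 4 called and 0 higher, and the line differences had 0 higher (ASO2) and 1 lower (ASO10) in SK-N-BE(2)c minus NGP and 0 lower in NGP minus IMR32. With no filter on low values, ASO1 in IMR32 had 0 higher, and NGP minus IMR32 had 0 lower. ASO2 in IMR32 had 1 higher with a pseudocount of 8, a minimum mean of 50, TMM or edgeR, and edgeR gave 2 higher for ASO10 in SK-N-BE(2)c minus NGP. Leaving out 1 library at a time, ASO1 in IMR32 had 4 to 8 called, 0 to 1 higher and 3 to 7 lower, the fewest called and lower without ASO1 replicate 4; ASO2 in IMR32 had 0 to 1 higher; and ASO1 against ASO2 had 0 to 1 called, 0 higher and 0 to 1 lower. The line differences then had 0 to 1 higher for ASO2 and 1 to 2 higher and 1 to 2 lower for ASO10 in SK-N-BE(2)c minus NGP, and 0 to 1 lower in NGP minus IMR32. Replicate numbers are not said to pair samples, and over tested genes no 2 groups of a line had every same-numbered pair correlated over 0.1 (for ASO1 and NCA in IMR32, r 0.055 to 0.318, with 3 of 4 libraries closest to their own number). At a mean of at least 50 that pair of groups did (0.112 to 0.564), and the other 8 did not. With the replicate block, ASO1 against ASO2 in IMR32 had 3 called (2 higher, 1 lower): SLC3A2 (0.11, adjusted p 0.0178) and SLC7A5 (0.11, adjusted p 0.0332) higher with ASO1 and SLC38A2 (-0.11, adjusted p 0.0145) lower. Against NCA in IMR32 it called SLC7A5 lower with ASO1 (-0.20, adjusted p 0.000184), and with ASO2 SLC1A5 lower (-0.16, adjusted p 0.000608) and SLC38A2 higher (0.15, adjusted p 0.000554), the 1 higher there. It also called SLC1A4 in SK-N-BE(2)c minus IMR32 (0.28, adjusted p 0.0477), and it changed no other call of a carrier. Apart from the fold-change rule, the cause of these changes was not tested. Depth limits SLC7A3, at 0 to 3 reads per library.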

Other observations

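Counts in the lists below stand beside shares over all genes of 13.6% to 17.6% higher and 14.4% to 14.8% lower in IMR32, and 26.8% to 33.6% higher and 27.6% to 33.4% lower across NGP and SK-N-BE(2)c, with no test of a difference. The first list holds genes that tell the cell about its amino acids at the lysosome. Of 21 tested in IMR32, 5 were higher and 5 lower with ASO1, and 8 higher and 4 lower with ASO2 (median log2 fold changes 0.10 and 0.11). Of 20 tested in the other lines, ASO2 had 10 higher and 6 lower in NGP and 10 higher and 7 lower in SK-N-BE(2)c, while ASO10 had 5 higher and 10 lower in NGP and 4 higher and 9 lower in SK-N-BE(2)c. Their medians log2 fold changes were 0.19, 0.19, -0.17 and -0.10 in that order, where all genes had medians between -0.03 and 0.01. RRAGB, a Rag GTPase that brings mTORC1 to the lysosome, was higher in all 6 contrasts, and in SK-N-BE(2)c it was at 319 ± 5.69 with ASO2 (SD, n = 3), 257 ± 34.3 with ASO10 and 96.1 ± 13.5 with NCA. RPTOR, the mTORC1 subunit that binds Rag GTPases, was lower in all 6, and in NGP it was at 315 ± 39.3 with ASO2 (SD, n = 3), 495 ± 32.4 with ASO10 and 686 ± 37.2 with NCA. FNIP2, a partner of folliculin, was lower in NGP and SK-N-BE(2)c with both ASOs, at -1.43 (adjusted p 4.5e-13) with ASO10 in NGP, and in IMR32 it was lower with ASO2 (-0.22, adjusted p 0.00157) and higher with ASO1 (0.14, adjusted p 0.0366).

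Among genes that act on the turnover of carriers, 9 were tested in IMR32 and 8 in each other line. In IMR32 1 was higher and 0 lower with ASO1 by limma (0 lower also at an unadjusted p under 0.05 and with edgeR and DESeq2), and 4 higher and 2 lower with ASO2. In NGP 3 were higher and 2 lower with each ASO, and in SK-N-BE(2)c 3 higher and 3 lower with ASO2 and 4 higher and 2 lower with ASO10. With ASO2 in NGP, where 30.6% of all genes were higher and 28.1% lower, these counts were near the background. ARRDC3, an arrestin-like adaptor for ubiquitin ligases, was called higher in 5 of 6 contrasts and was at 1750.5 ± 88.1 with ASO2 (SD, n = 3), 1138 ± 44.7 with ASO10 and 671 ± 37.1 with NCA in SK-N-BE(2)c. ARRDC4, of the same family, was higher with both ASOs in NGP, at 0.68 (adjusted p 5.02e-09) and 1.06 (adjusted p 1.84e-12). The rise was not confined to NGP. In SK-N-BE(2)c ARRDC4 was at 724 ± 60.5 with ASO2 (SD, n = 3), 553 ± 21.5 with ASO10 and 371 ± 21.7 with NCA. In IMR32 it was at 203 ± 19.0 with ASO1 (SD, n = 4), 252 ± 22.0 with ASO2 and 179 ± 12.2 with NCA. ARRDC2 was higher with ASO10 in NGP, at 2.24 (adjusted p 5.98e-06), from a level of 7.09 ± 4.16 with NCA. In IMR32 ARRDC2 was at 210 ± 22.9 with ASO1 (SD, n = 4), 180 ± 7.62 with ASO2 and 140 ± 5.18 with NCA. For SK-N-BE(2)c it was at 152 ± 6.97 with ASO2 (SD, n = 3), 210 ± 3.89 with ASO10 and 152 ± 26.1 with NCA.

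Of genes that use glutamine and arginine, 14 were tested in IMR32 and 13 in each other line. In IMR32 2 were higher and 5 lower with ASO1, and 3 higher and 3 lower with ASO2. In NGP 5 were higher and 4 lower with ASO2, and 1 higher and 3 lower with ASO10, while in SK-N-BE(2)c the counts were 6 and 5, and 5 and 6. The NGP counts with ASO2 were again near the 30.6% and 28.1% of all genes. GPT2, a mitochondrial alanine transaminase, was lower in IMR32, at -0.38 (adjusted p 0.000441) and -0.20 (adjusted p 0.0367), and higher in NGP, at 0.88 (adjusted p 1e-10) and 1.00 (adjusted p 1.05e-11), and in SK-N-BE(2)c, at 0.67 (adjusted p 6.76e-09) and 1.62 (adjusted p 3.7e-16). ARG2, the mitochondrial arginase, was lower in IMR32 with both ASOs (-0.63, adjusted p 9.2e-05 and -0.46, adjusted p 0.00163) and with ASO10 in NGP (-0.84, adjusted p 1.02e-05) and SK-N-BE(2)c (-0.79, adjusted p 0.000822). OAT, which breaks down ornithine, was higher with ASO2 in all 3 lines (0.64, adjusted p 6.25e-06, 0.81, adjusted p 1.23e-09 and 1.00, adjusted p 9.19e-14), and with ASO10 it had -0.08 (adjusted p 0.38) in NGP and -0.13 (adjusted p 0.0836) in SK-N-BE(2)c.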
